A study of Mus musculus with 4 samples.

Results

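The cartilage proteoglycan and matrix linker genes, 10 in all, were followed across the cell classes of mouse fracture callus and trabecular bone, with and without glucocorticoid (GC) exposure. They encode the proteoglycan core proteins aggrecan (Acan), versican (Vcan) and Snorc, the link protein Hapln1, the matrilins Matn1, Matn3 and Matn4, cartilage oligomeric matrix protein (Comp), and the small cartilage proteins Ucma and chondromodulin (Cnmd). The genes were taken by symbol, and all 10 were found once among the 32285 genes of each count matrix.

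The study profiled 4 single-cell RNA-Seq libraries made with the 10x Genomics droplet method, with a control and a GC library for either tissue. Per the labels, all mice were C57BL/6J males aged 20 weeks, the GC was prednisolone at 6.25 mg/kg/d from an implanted slow-release pellet, controls carried a placebo pellet, and tissue was taken at week 2. The study's text describes a daily injection of the same dose for the fracture model, and which route applied to the callus libraries could not be settled here. The number of mice behind a library is not given in the sources used here. With 1 library per group, no comparison between GC and control could be tested. A difference between the 2 libraries cannot be told apart from a difference between mice or preparations. In callus, cells of the 2 libraries were also called in different ways, as given below.

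Cartilage resists compression because aggrecan, heavily loaded with chondroitin sulfate chains, binds hyaluronan and holds water within a network of collagen II, IX and XI fibrils. Link protein locks aggrecan onto hyaluronan, and matrilins and Comp act as adaptors between collagen fibrils, proteoglycans and cells. In a fracture callus, chondrocytes build this matrix, then enlarge and switch to collagen X (hypertrophy) before the cartilage is replaced by bone.

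The 10 genes are protein coding and lie on 8 chromosomes of GRCm38. Hapln1 (chr13:89539796-89611652, plus strand) and Vcan (chr13:89655312-89742509, minus strand) are close to each other on chromosome 13. Matn4 (chr2:164389393-164405160, minus strand) and Ucma (chr2:4976122-4985748, plus strand) lie far apart on chromosome 2. The remaining genes are Acan (chr7:79053483-79115099), Matn1 (chr4:130944385-130955475), Matn3 (chr12:8947929-8972028), Comp (chr8:70373558-70382066) and Snorc (chr1:87470271-87475482), all on the plus strand, and Cnmd (chr14:79637690-79662170) on the minus strand.

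The 250 bases before the transcription start are printed for Ucma and Cnmd. These were the genes more than 1.5-fold lower in GC than in control callus chondrocytes taken as a class. Neither was past 1.5-fold within the 2 main chondrocyte clusters, as given below. Sequences are from RefSeq on GRCm38.p6, 5′ to 3′ on the strand of the gene, for chr2:4975872-4976121 (plus strand) and chr14:79662184-79662433 (minus strand). Capitals mark AGAACA or its reverse complement TGTTCT, the letters of the glucocorticoid receptor half-site.
Ucma: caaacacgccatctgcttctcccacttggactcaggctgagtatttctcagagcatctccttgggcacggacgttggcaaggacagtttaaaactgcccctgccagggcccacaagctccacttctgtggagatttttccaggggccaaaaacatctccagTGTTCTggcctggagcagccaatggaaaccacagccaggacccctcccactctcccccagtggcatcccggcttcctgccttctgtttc
Cnmd: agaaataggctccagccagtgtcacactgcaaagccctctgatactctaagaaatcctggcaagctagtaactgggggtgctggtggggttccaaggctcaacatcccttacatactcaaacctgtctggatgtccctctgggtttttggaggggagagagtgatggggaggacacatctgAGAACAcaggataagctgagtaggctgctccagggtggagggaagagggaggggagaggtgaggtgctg
Windows were available for 8 of the 10 genes, all but Comp and Snorc, and 2 of these 8, Ucma and Cnmd, held AGAACA on either strand. The match starts 89 bases before the Ucma start on the opposite strand, and 69 bases before the Cnmd start on the same strand. The same letters occur in 16.1% of 32851 mouse promoter windows of this length, so a match is no more than a description of the window. The SOX-type letters ACAAAG (16.5% of windows) and ACAATG (10.7%) and the TATAAA box (12.4%), searched on both strands, were found in 0 of the 8 windows.

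After filtering, callus was left with 6714 control and 6890 GC cells and trabecular bone with 3832 control and 4604 GC cells, with medians of 3272.5 to 6263 UMIs per cell. A UMI (unique molecular identifier) marks 1 captured RNA molecule. Pairs of libraries shared 6 to 11 cell barcodes. Cells were clustered with the 10 genes left out and clusters were named from other markers, so the genes described did not themselves define the classes. Some of these markers, such as Col2a1 and Col9a1, ran close to several of the 10 genes, as given below. Differences of the genes between classes are therefore not independent of the naming. A name such as chondrocytes stands for chondrocyte-like cells. Levels are UMIs of a gene per 1000000 UMIs (CPM) of a class summed within a library, and all 95% intervals are exact and cover counting error only. In GC callus Fkbp5, a gene induced by the glucocorticoid receptor, was 31.0 CPM against 19.8 in control, and Sgk1 was 982 against 532. In trabecular bone Fkbp5 was 60.4 against 16.0 CPM. Of the other GC response genes listed, Tsc22d3 (118 against 104 CPM), Klf9 (290.3 against 228) and Zbtb16 (6.01 against 4.30) were higher in GC callus. Per1 (39.7 against 52.4 CPM), Ddit4 (25.0 against 48.3), Errfi1 (517 against 817) and Cdkn1a (1381 against 1669) were lower, and Pdk4 was at 15.9 CPM in both.

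The GC callus library differed from its control in makeup. Chondrocyte-like cells were 1450 of the control cells (21.6%) and 620 of the GC cells (9.0%), and hypertrophic chondrocyte-like cells were 916 (13.6%) and 905 (13.1%). Cells of clusters left unnamed were 475 (7.07%) and 1926 (28.0%), mostly because of 1 cluster (cluster 2) that held 4 control and 1113 GC cells. Cluster 2 was led by Tnn, Col9a1, Dcn and Col10a1 but also by the neutrophil granule gene Camp, and its GC cells had a median of 2527 UMIs against 23530.5 in GC chondrocytes. The lower number of GC chondrocytes depended on how clusters were drawn and named. It turned to 1454 control and 1733 GC cells with ambiguous clusters such as cluster 2 named, and to 1698 and 2073 with every cluster under its best marker name. It also turned to 1304 and 1619 with every barcode of at least 500 UMIs, 1323 and 1657 at Leiden resolution 0.5 (coarser clusters), and 782 and 1898 with each library clustered alone.

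The chondrocyte classes held most of the RNA of these genes. In control callus 68.9% of the UMIs of the 10 genes came from chondrocytes and 19.8% from hypertrophic chondrocytes. In GC callus the shares were 42.3% and 28.4%, and the unnamed clusters held 27.9%, against 9.81% in control. The joint share of both chondrocyte classes, 88.7% in control and 70.7% in GC, was 81.4% and 44.2% when each cell counted alike. It was nearly equal at Leiden resolution 2 (61.8% and 61.3%) and higher in GC with each library clustered alone (72.3% and 91.0%). Cluster 2 alone held 9.67% of the UMIs of the 10 genes in GC callus and 0.0105% in control. The 10 genes summed to 30695 CPM in control and 25627 CPM in GC chondrocytes, and to 19110 and 17293 CPM in hypertrophic chondrocytes.

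**Figure D1:**
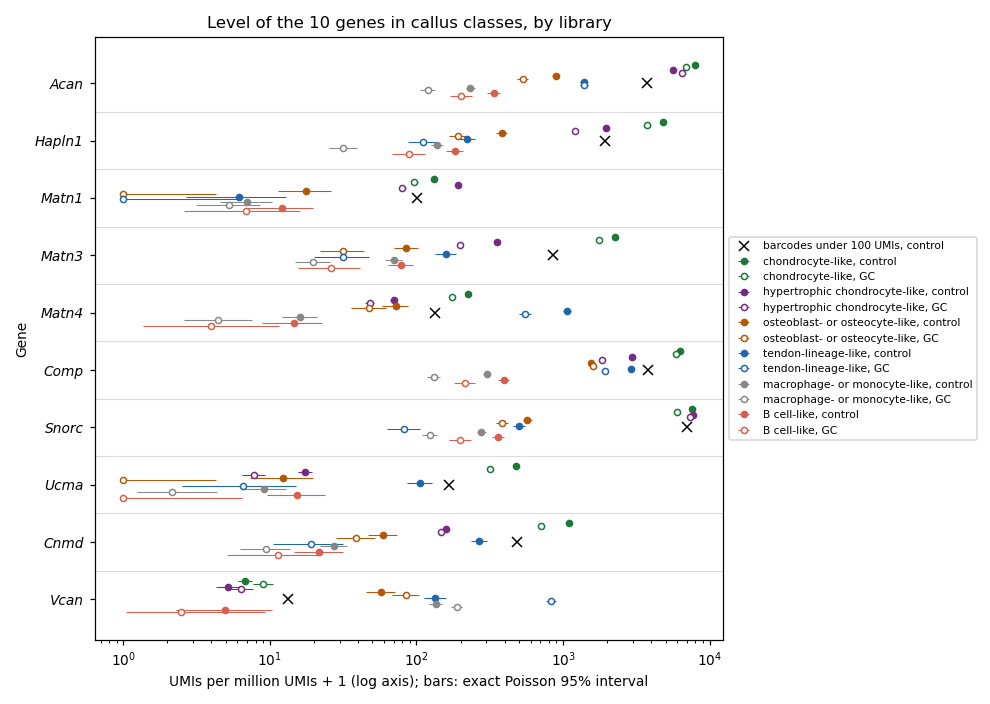
Level of each gene (CPM + 1, log axis) in callus cell classes of the control (filled) and the GC library (open circles) with 95% Poisson intervals, and in droplets under 100 UMIs of control callus (crosses). Of the classes shown, the chondrocyte class is highest for Acan, Hapln1, Matn3, Comp, Ucma and Cnmd in both libraries. The tendon-lineage class is highest for Matn4, and tendon-lineage cells with macrophages or monocytes for Vcan. Unnamed clusters are not shown.

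Of the proteoglycan core proteins, Acan was 7892 CPM in control and 6887 CPM in GC chondrocytes, and 5648 and 6454 CPM in hypertrophic chondrocytes. Snorc, a small transmembrane chondroitin sulfate proteoglycan of cartilage, was 7586 and 6011 CPM in chondrocytes and 7753 and 7320 CPM in hypertrophic cells. Both genes were within 1.5-fold between the chondrocyte classes of a library. Vcan, the large hyaluronan-binding proteoglycan of softer connective tissue, was 5.78 CPM in control (227 UMIs) and 8.0 CPM in GC chondrocytes (119 UMIs). The free RNA of control callus held Vcan at 12.3 CPM, and control B cells held 0.325 times that level (5 UMIs). The free RNA of GC callus could not be measured.

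Hapln1 was 4795 CPM in control and 3764 CPM in GC chondrocytes, and 1951 and 1199 CPM in hypertrophic chondrocytes. Comp, a thrombospondin family protein that binds collagen fibrils, was 6231 and 5904 CPM in chondrocytes and 2965 and 1838 CPM in hypertrophic cells. Matn3 was 2250 and 1758 CPM in chondrocytes and 355 and 197 CPM in hypertrophic cells. Matn4 had a different distribution: it was 225 and 174 CPM in chondrocytes but 1063 and 551 CPM in tendon-lineage cells, the class of Tnmd and Thbs4, and these 78 and 60 cells held 7.67% and 5.86% of its UMIs. Matn1 was 130 CPM in chondrocytes and 190 CPM in hypertrophic cells of control callus, and 95.6 and 79.3 CPM in GC callus, so it was the matrilin with no lower level in the hypertrophic cells of the control.

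Ucma, a secreted protein rich in γ-carboxyglutamate, was 480 CPM in control and 318 CPM in GC chondrocytes, but 16.5 and 6.77 CPM in hypertrophic chondrocytes (299 and 100 UMIs). Cnmd, a membrane glycoprotein that keeps cartilage free of vessels, was 1100 and 707 CPM in chondrocytes and 158 and 146 CPM in hypertrophic cells. Ucma, Cnmd and Matn3 had the largest ratios between the 2 classes in both libraries.

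Within each library, 6 of the 10 genes were more than 1.5-fold lower in hypertrophic than in other chondrocytes. Of all genes, 9.27% in control and 9.43% in GC callus were that much lower. Such shares of all genes, here and below, were not matched for the level of the 10 genes. The 6 were Hapln1, Matn3, Matn4, Comp, Ucma and Cnmd in both libraries. The log2 ratio, with 5 CPM added to each level, was -4.50 in control and -4.78 in GC for Ucma, -2.65 and -3.13 for Matn3, and -2.76 and -2.24 for Cnmd. The hypertrophic Ucma level of control callus was close to that of B cells, given below, which should lack the gene. The part of background in this ratio was not tested. Acan (-0.48 and -0.09), Snorc (0.03 and 0.28) and Vcan (-0.23 and -0.33) stayed within 1.5-fold. The Matn1 ratio was above 0 in control (0.53) and below 0 in GC (-0.25), within 1.5-fold in each, and over 15 alternatives it ranged from -0.21 to 0.98 and from -1.21 to 0.77. The median over the 10 genes was -1.18 in control and -1.66 in GC, against 0.04 and 0.06 over all genes. When doublets were not removed, these medians were -0.59 and -0.49, and Ucma, Matn3 and Cnmd were past 1.5-fold under each of the 15 alternatives in both libraries.

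Single clusters resolved these steps. Chondrocytes were mainly cluster 5 (742 control and 236 GC cells, led by Ucma, C1qtnf3, H19 and Cnmd) and cluster 7 (581 and 345 cells, led by Ibsp, Col11a1 and Col2a1), and hypertrophic chondrocytes were mainly clusters 4 (428 and 571 cells) and 9 (410 and 251 cells). Ucma was 727 CPM in control and 543 CPM in GC cells of cluster 5, 159 and 150 CPM in cluster 7, and 17.1 and 8.04 CPM in cluster 9. In the cycling chondrocytes of control callus (cluster 24, 70 cells) Ucma was 763 CPM. Matn1 ran the other way in control, with 77.0 CPM in cluster 5, 203 CPM in cluster 7 and 212 CPM in cluster 9. In GC it was 58.2, 123 and 83 CPM, so it was higher in cluster 7 than in cluster 9. The log2 ratio of cluster 7 over cluster 5 was 1.35 in control and 1.02 in GC for Matn1, against -2.16 and -1.82 for Ucma. Hapln1 was 4116 and 4021 CPM in cluster 5, 5761 and 3616 CPM in cluster 7, and 2213 and 1220 CPM in cluster 9, so its order between clusters 5 and 7 differed between the libraries.

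**Figure D2:**
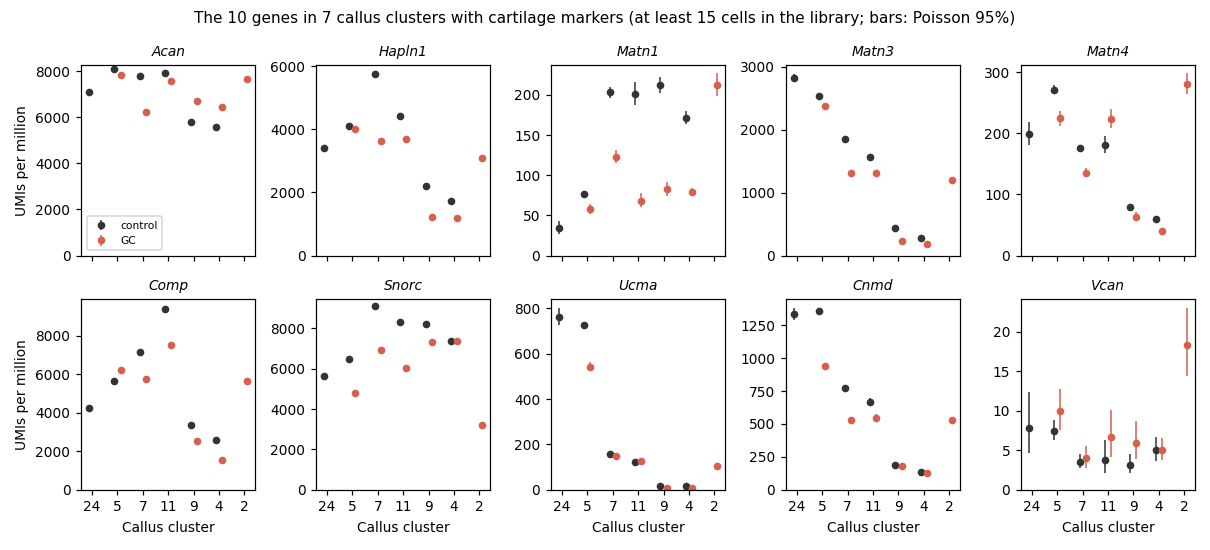
Level of each gene (CPM, linear axes from 0) in 7 callus clusters with cartilage markers in the control (black) and the GC library (red), with 95% Poisson intervals, for clusters of at least 15 cells in the library. Ucma and Cnmd are highest in clusters 24 and 5, and in the control library Matn1 is higher in clusters 7, 11, 9 and 4 than in clusters 24 and 5.

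In GC chondrocytes 9 of the 10 genes had a lower level than in control chondrocytes, most by a small amount. The share of all genes lower by any amount is not given, so this count has no background beside it. Past 1.5-fold, 2 of the 10 genes were lower, Ucma and Cnmd, and 0 higher, where 3.67% of 12294 genes were that much lower and 1.81% higher. The fold was 0.662 (95% interval 0.641 to 0.684) for Ucma, just past the threshold, and 0.643 (0.629 to 0.657) for Cnmd. Of the genes inside the threshold, Matn1 was lowest (0.737, 0.694 to 0.781), followed by Matn4 (0.773), Matn3 (0.782), Hapln1 (0.785), Snorc (0.792), Acan (0.873) and Comp (0.948). Vcan was 1.38-fold higher on its few UMIs. The median log2 ratio of the 10 genes was -0.35, against -0.02 over all genes.

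**Figure D3:**
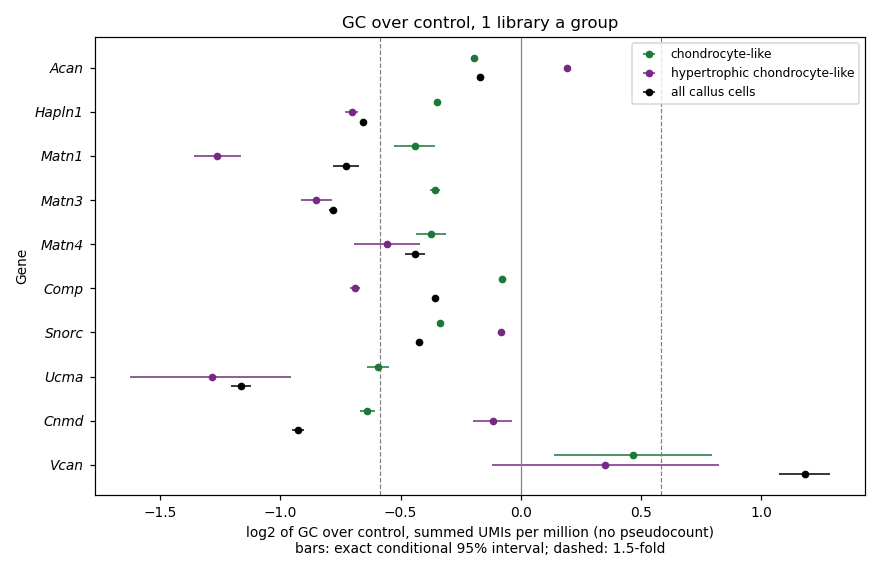
Log2 ratio of GC over control CPM, here with nothing added, for each gene in callus chondrocytes (green), hypertrophic chondrocytes (purple) and all cells (black), with exact 95% intervals for the counts and dashed lines at 1.5-fold. Ucma and Cnmd lie past the lower line in chondrocytes, Matn1 and Ucma lie lowest in hypertrophic chondrocytes, and Vcan lies past the upper line over all cells.

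Most control chondrocytes belonged to cluster 5 and most GC chondrocytes to cluster 7, so the ratios were also taken within clusters. In cluster 5, 0 of the 10 genes were more than 1.5-fold lower (4.79% of all genes were), and Ucma was -0.42 and Cnmd -0.53 on the log2 scale. In cluster 7, 2 genes were more than 1.5-fold lower (3.32% of all genes), Hapln1 at -0.67 and Matn1 at -0.70, whereas Ucma was -0.09 and Cnmd -0.53. Neither cluster thus had Ucma or Cnmd past 1.5-fold. Over all chondrocytes Cnmd was past 1.5-fold lower under 20 of 21 alternatives and Ucma under 13, and at a Leiden resolution of 2, which gives finer clusters, the Ucma ratio changed sign, to 0.04.

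In hypertrophic chondrocytes 5 of the 10 genes were more than 1.5-fold lower in GC, where 2.15% of 11439 genes were that much lower and 2.29% higher. These were Matn1, with a fold of 0.417 (0.390 to 0.446), Ucma (0.410, 0.324 to 0.516), Matn3 (0.555, 0.531 to 0.580), Hapln1 (0.614, 0.603 to 0.626) and Comp (0.620, 0.611 to 0.629). Matn4, at 0.680, was inside the threshold with or without 5 CPM added. Ucma counted few UMIs in this class, and its 16.5 CPM in control was close to the 14.3 CPM of control B cells. Acan was 1.14-fold higher in GC, and Snorc (0.944) and Cnmd (0.922) were close to the control level. The median log2 ratio of the 10 genes was -0.60, against -0.01 over all genes.

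Within the main clusters of hypertrophic cells, 4 of 10 genes were more than 1.5-fold lower in cluster 4 (Matn1, Matn3, Comp and Ucma, with 2.75% of all genes) and 4 in cluster 9 (Hapln1, Matn1, Matn3 and Ucma, with 3.13%). Matn1 was 172 CPM in control and 79.1 CPM in GC cells of cluster 4, and 201 and 68.6 CPM in the unnamed cluster 11, which was led by Ibsp, Panx3 and Ihh. The lower Matn1 level was therefore present in clusters 4, 7, 9 and 11, and in cluster 5 it was within 1.5-fold (77.0 and 58.2 CPM). Cluster 2 of GC callus, with Matn1 at 212 CPM, had 4 control cells, too few to compare with. The class ratios depended on how the class was drawn: the median was 0.01 when doublets were kept and 0.22 at Leiden resolution 2, and in both cases Matn1 was the 1 gene more than 1.5-fold lower. The share of all genes that much lower is given for the main setting only. Matn1 was past 1.5-fold lower under each of 21 alternatives (log2 ratio -1.67 to -0.83), whereas Matn3 changed sign under 1 (0.18 at Leiden resolution 2). Ucma changed sign under 4 of its 20 alternatives. Among these was the B cell level subtracted (0.72), which leaves the class as drawn. The median over the 10 genes was also less negative with the B cell level subtracted, as given at the end.

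Over all callus cells, a comparison that does not depend on classes, 5 of the 10 genes were more than 1.5-fold lower in GC (1.53% of 15110 genes were) and 1 was higher (1.74%). Ucma was 254 CPM in control and 113 CPM in GC, Cnmd 637 and 335, Matn3 1296 and 755, Matn1 119 and 72.0, and Hapln1 3091 and 1963. Acan was 5743 and 5111 CPM, Comp 4495 and 3506, Snorc 6019 and 4488, and Matn4 169 and 124. Vcan was the gene that was higher, with 15.1 CPM in control and 34.2 CPM in GC (fold 2.27, 2.11 to 2.44). In pooled cells, fewer chondrocytes and less RNA per chondrocyte cannot be told apart, and the share of cells named chondrocytes was 21.6% and 9.0%, with cluster 2 left unnamed. When each cell counted alike, as the mean of its CPM or after thinning to 1000 UMIs, the median log2 ratio of -0.54 became -0.20 and -0.23, with 2 and 1 genes more than 1.5-fold lower. The share of all genes past 1.5-fold is not given for these settings, so these counts have no background beside them. Ucma was past 1.5-fold lower under each of 15 alternatives (log2 ratio -1.23 to -1.04). Cnmd was past it under 14 of them, and Hapln1, Matn3 and Matn1 under 13, with Matn1 ranging from -0.78 to -0.11. Vcan was past 1.5-fold higher under 14.

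The share of cells with at least 1 UMI was taken after thinning every cell to 1000 UMIs, which left out 51 control and 21 GC chondrocytes. Acan was found in 99.2% of control and 98.3% of GC chondrocytes, Comp in 98.0% and 97.5%, and Snorc in 96.0% and 92.2%. Cnmd was found in 61.3% (58.7% to 63.9%) and 42.2% (38.2% to 46.3%), and without thinning in 94.8% and 82.7%. Ucma was found in 27.0% (24.7% to 29.4%) and 16.9% (13.9% to 20.1%), and without thinning in 75.0% and 57.1%, at medians of 26285.5 and 23530.5 UMIs. In B cells, which should lack these genes, Ucma was found in 1.02% of 589 control and 0% of 349 GC cells (an upper limit of 1.05%) and Cnmd in 2.38% and 0.573%, at medians of 1918.5 and 1682.5 UMIs.

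In hypertrophic chondrocytes (39 control and 50 GC cells left out) Acan was found in 90.4% of control and 91.2% of GC cells, and Matn1 in 14.3% (12.0% to 16.7%) and 5.50% (4.07% to 7.24%). Hapln1 was found in 62.4% and 52.3%, Comp in 79.2% and 64.7%, and Matn3 in 24.5% and 13.0%. Ucma was found in 0.912% of control cells, below the share of control B cells. Its 0.936% in GC was above the 0% of GC B cells but under the upper limit of 1.05% for them. It could thus not be told apart from the B cell share at this depth. Before thinning, B cells had fewer UMIs per cell, so their share may not be the background of hypertrophic cells, which was not tested. A median of 6 of the 10 genes was found per control chondrocyte and 5 per GC chondrocyte, against 4 and 3 per hypertrophic cell. At least 5 of the 10 were found in 89.8% of control and 75.6% of GC chondrocytes, against 0.170% and 0% of B cells. B cells held a median of 1 of the 10 genes in both libraries, and 25.5% of control and 49.9% of GC B cells held 0. The shares above thus include background that differed between the libraries, and its part in them was not tested.

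**Figure D4:**
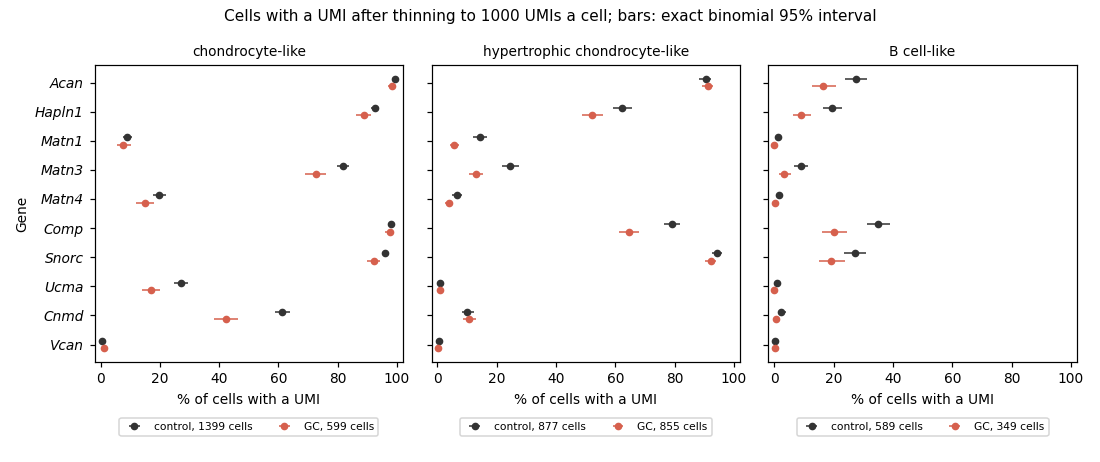
Share of cells (%) with at least 1 UMI of each gene after thinning to 1000 UMIs, in chondrocytes, hypertrophic chondrocytes and B cells of control and GC callus, with 95% Clopper-Pearson intervals. Acan, Comp and Snorc are found in nearly every chondrocyte of both libraries, and Cnmd and Ucma in fewer GC than control chondrocytes.

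Vcan had its own distribution. In control callus 35.5% of its UMIs came from macrophages or monocytes, 18.8% from chondrocytes and 10.8% from tendon-lineage cells, and in GC callus 26.0%, 6.38% and 32.2%. The Vcan level of control chondrocytes, given above, was below the 12.3 CPM of free RNA, so their share may hold background, which was not tested. In macrophages or monocytes Vcan was 134 CPM in control (429 UMIs) and 187 CPM in GC (486 UMIs), within 1.5-fold. In tendon-lineage cells it was 133 CPM (130 UMIs) and 831 CPM (600 UMIs), a fold of 6.24 (5.15 to 7.60). After thinning, 8.97% (3.68% to 17.6%) of 78 control and 25.0% (14.7% to 37.9%) of 60 GC tendon-lineage cells carried it, and these intervals overlap.

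Of the 9 genes measured in tendon-lineage cells, 7 were more than 1.5-fold lower in GC and 1, Vcan, was higher, where 8.24% of all genes were lower and 8.50% higher. Cnmd was 266 CPM in control and 18.0 in GC, Ucma 104 and 5.54 (4 UMIs in GC), Snorc 500 and 81.7, and Matn3 158 and 30.5. Hapln1 was 219 and 109, Matn4 1063 and 551, and Comp 2925 and 1922 CPM, whereas Acan was 1386 and 1393 CPM. Col2a1, a defining chondrocyte marker, was 4191 CPM in control and 377 CPM in GC tendon-lineage cells, against 2201 and 874 CPM in B cells. The part of chondrocyte RNA in these ratios was not tested.

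In osteoblasts or osteocytes (67 control and 78 GC cells) Comp was 1540 and 1612 CPM, Acan 888 and 530 CPM, Hapln1 380 and 191 CPM, and Vcan 56.0 and 83.5 CPM. The fold was 1.05 (0.982 to 1.12) for Comp, against 0.596 (0.539 to 0.659) for Acan and 0.504 (0.427 to 0.593) for Hapln1. Acan was also lower in GC in B cells, at the levels given below. In control callus Acan was 0.239 times the level of droplets under 100 UMIs in osteoblasts or osteocytes and 0.0901 times in B cells. Hapln1 was 0.198 and 0.0943 times that level. The part of background RNA in these ratios was not tested.

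Blood cell classes, which do not make cartilage matrix, also carried UMIs of these genes. In control callus the droplets under 100 UMIs, which hold free RNA rather than cells, contained Acan at 3723 CPM, Comp at 3775, Snorc at 6994, Hapln1 at 1917, Matn3 at 859, Cnmd at 487, Ucma at 165, Matn4 at 133, Matn1 at 99.5 and Vcan at 12.3 CPM. Summed, the 10 genes made up 18166 CPM of free RNA. Control B cells held 0.0777 times that level, neutrophils 0.0836 times and macrophages or monocytes 0.0664 times. The mix of genes was not quite that of free RNA: Snorc was 25.6% of the UMIs of the 10 genes in control B cells and 38.5% in the droplets, Acan 23.8% and 20.5%, and Comp 27.8% and 20.8%. In control chondrocytes Snorc was 24.7%, Acan 25.7% and Comp 20.3%, so the B cell mix was not that of chondrocytes either. Vcan was the gene that stood above free RNA in blood cells, at 10.9 times (8.41 to 14.4) the level of the droplets in macrophages or monocytes.

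The level of these genes in blood cells was lower in GC callus. Summed over the 10 genes, B cells had 1411 CPM in control and 746 CPM in GC. In macrophages or monocytes 7 of 8 measured genes were more than 1.5-fold lower in GC, where 7.81% of all genes were, from a fold of 0.508 (0.443 to 0.581) for Acan to 0.224 (0.174 to 0.284) for Hapln1, with Vcan as the exception. The callus GC matrix lists no barcode under 500 UMIs, so its free RNA could not be measured, and its part in these ratios was not tested. B cell levels of both libraries are given beside the chondrocyte values as a measure of background. They came to 336 and 202 CPM for Acan and to 14.3 and 0 CPM for Ucma, where 0 UMIs allow up to 4.41 CPM. Control B cells had a median of 1918.5 UMIs and control osteoclasts 19261. Against free RNA, the 10 genes summed to 0.0777 times in B cells and 0.0533 times in osteoclasts, and Ucma to 0.0868 and 0.0295 times. B cell levels may thus not be the background of cells with more UMIs, which was not tested.

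Trabecular bone held almost none of the 10 genes apart from Vcan. No cluster there was named chondrocyte or osteoblast, neutrophils made up 69.7% and 71.8% of the cells, and Col2a1 counted 2 UMIs in control and 58 in GC. The 9 other genes together counted 113 UMIs in control and 163 in GC, and Ucma and Matn3 were at 0 in both libraries, which allows up to 0.0883 and 0.0799 CPM at 3 counts. Comp accounted for 78 and 135 of these UMIs, of which 63 and 129 came from 13 control and 35 GC stromal-like cells, at 529 CPM (406 to 677) and 517 CPM (431 to 614). Vcan was 235 CPM (28 UMIs) and 128 CPM (32 UMIs) in the same cells. Cnmd counted 17 and 15 UMIs, all in neutrophils.

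In trabecular macrophages or monocytes (281 cells in each library) Vcan was 233 CPM in control (1003 UMIs) and 488 CPM in GC (2062 UMIs), a fold of 2.09 (1.94 to 2.26), where 1.40% of 8482 genes were more than 1.5-fold higher. It was higher in both clusters of the class, with 350 and 657 CPM in cluster 9 (184 control and 167 GC cells) and 136 and 386 CPM in cluster 13 (97 and 114 cells). After thinning, 21.9% (17.2% to 27.2%) of control and 34.9% (29.3% to 40.8%) of GC monocytes carried it. Trabecular droplets under 100 UMIs held Vcan at 13.5 and 23.6 CPM, well under the monocyte level. Thus Vcan was higher in GC in trabecular monocytes and in callus tendon-lineage cells, and within 1.5-fold in callus macrophages or monocytes (1.39, 1.22 to 1.59). It was lower in GC in trabecular stromal-like cells, at the levels given above. Of 13 control stromal-like cells 23.1% (5.04% to 53.8%) carried it after thinning, and of 35 GC cells 2.86% (0.0723% to 14.9%). These intervals overlap. The difference between the ratios of these classes was not tested.

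The same 1.5-fold rule was applied to lists of the enzymes and partners of these genes in chondrocytes. Over all genes, 3.67% of 12294 were that much lower in GC chondrocytes and 1.81% higher. Of 14 genes of chondroitin chain synthesis 0 were past 1.5-fold either way, with a median log2 ratio of -0.04. Of 11 sulfation genes 1 was higher, Papss2, which makes the sulfate donor (442 CPM in control and 666 CPM in GC), and 0 were lower, with a median of -0.06. Of 9 hyaluronan genes 2 were higher, the synthase Has2 (42.9 and 69.4 CPM) and the hyaluronan-binding protein Tnfaip6 (473 and 826 CPM), and 0 were lower, with a median of -0.10. The 7 genes of aggrecan cleavage include the inhibitor Timp3. Of them the aggrecanase Adamts5 was higher (48.8 and 80.3 CPM) and Mmp13 (68.0 and 23.3 CPM) and Mmp3 (3.03 and 0.336 CPM, 119 and 5 UMIs) were lower. The median of -0.03 was the ratio of Timp3, so it does not describe the cleaving enzymes alone. Of 17 other linker and matrix genes Chad was higher (1214 and 2183 CPM) and Epyc (113 and 42.4 CPM) and Cilp (18.5 and 5.85 CPM) were lower, with a median of -0.08.

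Of the 6 cartilage collagens 1 was more than 1.5-fold lower in GC chondrocytes, Col9a2 (4331 and 2852 CPM), and the median was -0.29. These collagens, Sox9, Ihh, Pth1r and Mmp13 were among the markers used to name the classes. Their levels within a class are therefore not independent of its naming. Of 11 chondrocyte regulators Foxc1 was higher (159 and 256 CPM) and 0 were lower, with a median of -0.25. Of 8 cycling genes 7 were lower, Mki67, Top2a, Cdk1, Birc5, Ube2c, Cenpf and Tpx2 (median -1.51). All 4 hemoglobin genes, Hba-a1, Hba-a2, Hbb-bs and Hbb-bt, were lower (median -1.29), as were 5 of 10 genes induced by tissue dissociation, Fos, Jun, Junb, Egr1 and Ier2 (median -0.45). Of 10 GC response genes Sgk1 was higher (494 and 814 CPM) and Ddit4 (48.3 and 10.7 CPM) and Errfi1 (943 and 565 CPM) were lower, with a median of 0.07. The part of cycling and of dissociation in the ratios of the 10 genes was not tested.

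In hypertrophic chondrocytes 5 of 6 cartilage collagens were more than 1.5-fold lower in GC, namely Col2a1 (29623 CPM in control and 17872 CPM in GC), Col9a1, Col9a2, Col9a3 and Col11a2, with a median of -0.71. Over all genes, 2.15% of 11439 were that much lower in this class and 2.29% higher. The collagens, and Mmp13, Ihh and Pth1r below, were also markers used to name the classes. Of the 14 chondroitin synthesis genes and the 10 sulfation genes 0 were past 1.5-fold, with medians of -0.12 and -0.19. Of 8 hyaluronan genes Has2 was higher (8.49 and 20.2 CPM) and Cemip, which takes part in hyaluronan breakdown, was lower (21.3 and 11.8 CPM), with a median of 0.16. Of 7 cleavage genes Adamts1 (57.8 and 112 CPM) and Mmp3 (0.386 and 3.66 CPM, 7 and 54 UMIs) were higher and Mmp13 was lower (3109 and 1583 CPM). The median of 0.28 was again the ratio of the inhibitor Timp3. Of 12 other linkers Prg4 (6.4 and 16.7 CPM) and Tnc (75.0 and 131 CPM) were higher and Epyc (8.16 and 3.25 CPM) and Chadl (56.4 and 34.5 CPM) were lower, with a median of -0.04. Of 10 regulators Ihh (308 and 161 CPM) and Pth1r, the receptor of the Ihh growth loop (702 and 443 CPM) were lower, with a median of -0.14. Of 10 GC response genes Fkbp5 (17.5 and 32.0 CPM) and Sgk1 (797 and 1456 CPM) were higher and Ddit4 (52.4 and 22.1 CPM) and Pdk4 (46.4 and 29.2 CPM) were lower, with a median of -0.06. Of 10 dissociation genes 1 was lower, Junb (1455 and 898 CPM, list median -0.13), and of 8 cycling and 4 hemoglobin genes 0 were past 1.5-fold, with medians of -0.20 and 0.29.

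The genes whose levels ran most alike were found by the correlation of log2 levels over 26 points, 13 callus classes in each of 2 libraries. These points share libraries and free RNA, so r is a description. Of the genes named below, Col2a1, Col9a1, Col10a1, Col11a1 and Scx were also markers used to name these classes. Hapln1 ran closest to Col2a1 (r = 0.980), Matn3 and Cnmd to Col9a1 (0.974 and 0.962), and Snorc to Col2a1 (0.978) and Col10a1 (0.968). Comp ran closest to Col11a1 (0.979) and Acan to Tnfaip6 (0.972). Matn1 ran closest to Il17b (0.951) and to Col10a1 (0.949), and Matn4 to Col16a1 (0.966) and Fmod (0.956). Ucma had a weaker best match, Scrg1 (0.936), and Vcan the weakest, Tppp3 (0.842), with the tendon transcription factor Scx among its next (0.745).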

How the data were processed

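The authors deposited matrices of UMI counts per gene and barcode, without normalization, for the 4 libraries. The submitters' processing notes name Cell Ranger 5.0.1, Seurat 3.2.0 and mm10, whereas the file headers name Cell Ranger 4 (4.0.0 for GC callus). Matrices of 3 libraries list 6794880 barcodes, and that of GC callus lists 7762, taken as called cells. In the others, barcodes of at least 500 UMIs were called by a UMI cutoff or by a Monte Carlo test against empty droplets (10000 simulations, adjusted p of 0.01). Cells with under 200 genes or over 10% mitochondrial UMIs were removed, as were doublets scored against simulated pairs (0.8% per 1000 cells). Clustering took control and GC cells of a tissue jointly, on 2000 variable genes, 30 components, 15 neighbors and Leiden resolution 1, leaving out 95 genes, among them the 10 members and the genes of GC response and dissociation. Classes were named from 145 markers of 20 classes that hold no member (at least 3 markers of 2-fold in 10% of cells).

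UMIs were summed by class and library. Log2 ratios added 5 CPM, asked for 50 UMIs over both libraries, and were called past 1.5-fold (log2 0.585). Intervals are exact at 95% (Poisson, Clopper-Pearson, conditional for ratios of counts). A count of 0 allows 3 counts. Shares of cells were taken after thinning to 1000 UMIs. The text names every member, and every gene of the lists (chondroitin synthesis, sulfation, hyaluronan, aggrecan cleavage, other linkers, cartilage collagens, chondrocyte regulators, GC response, hemoglobin, cycling, dissociation) past 1.5-fold in chondrocytes or hypertrophic chondrocytes. For each member it gives some of the 3 genes most like it, by Pearson r over classes of at least 15 cells, among genes of at least 50 CPM. The members and lists were chosen with earlier results of these data known. Scripts were tested on simulated data. Python 3.11.15 was used with leidenalg 0.10.2 and igraph 0.11.9 for clusters, scikit-learn 1.9.0 for components, scipy 1.17.1 for intervals, pandas 2.3.3 and numpy 2.4.6 for sums, numba 0.67.0 for droplet simulations and matplotlib 3.10.9 for plots, and edgeR 4.0.16 for TMM factors only.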

Additional observations from a re-analysis of the deposited data

How the results depend on the processing

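No paired analysis was possible because each group is 1 library and the labels give no replicate numbers, and leaving out a replicate was not possible for the same reason. One choice was changed at a time, and the 3 choices on which clusters count in a class were added after seeing the data. Counts of genes past the threshold under a changed choice come without the share over all genes, which is given for the main setting only. The causes of the shifts below were not tested unless stated. With 1 library per group, depth limits only the counting error, and the difference between mice is not known.

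In callus chondrocytes the median log2 ratio of the 10 genes, -0.35, was -0.23 with every barcode of at least 500 UMIs and also at Leiden resolution 0.5, -0.40 with a mitochondrial limit of 5%, -0.21 at Leiden resolution 2, -0.50 with each library clustered alone, -0.30 with ambiguous clusters named and also with the mean over cells, and -0.32 with the B cell level subtracted. The count of genes past 1.5-fold lower, 2, was 1 at Leiden resolution 2, without clusters mostly from 1 library, with median-of-ratios size factors, with TMM factors, with the B cell level subtracted and with a pseudocount of 20, was 4 with each library clustered alone, and was 0 at 2-fold. The count higher, 0, was 1 with every barcode of at least 500 UMIs, without doublet removal, at Leiden resolution 0.5, with each library clustered alone and with the B cell level subtracted. The Ucma ratio changed sign at Leiden resolution 2 (0.04).

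In hypertrophic chondrocytes the median, -0.60, changed sign without doublet removal (0.01) and at Leiden resolution 2 (0.22). It was -0.45 with every barcode of at least 500 UMIs, -0.17 with at least 500 genes a cell and at Leiden resolution 0.5, -0.42 with the members used in clustering, -0.28 with every cluster under its best marker name, -0.35 with the mean over cells, -0.18 with the B cell level subtracted and -0.43 with a pseudocount of 20. The count lower, 5, was 1 with at least 500 genes a cell, without doublet removal, at Leiden resolutions 0.5 and 2 and at 2-fold, and 3 with every cluster under its best marker name. The count higher, 0, was 1 without doublet removal and at Leiden resolution 2, and 2 with the B cell level subtracted. Matn3 changed sign at Leiden resolution 2 (0.18). Ucma changed sign without doublet removal (0.22), at Leiden resolutions 0.5 (0.10) and 2 (0.61), and with the B cell level subtracted (0.72).

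Over all callus cells the median, -0.54, was -0.63 with median-of-ratios size factors, -0.64 with TMM factors, -0.20 with the mean over cells, -0.23 after thinning, -0.52 with the B cell level subtracted and -0.51 with a pseudocount of 20. The count lower, 5, was 2 with the mean over cells, 1 after thinning and 1 at 2-fold, and the count higher, 1, was 0 with the mean over cells and at 2-fold.

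The median of hypertrophic over other chondrocytes stayed below 0. In control callus it was -1.18, and -1.02 with every barcode of at least 500 UMIs, -1.76 with at least 500 genes a cell, -0.59 without doublet removal, -0.63 and -1.38 at Leiden resolutions 0.5 and 2, -1.52 with the members used in clustering, -1.03 with each library clustered alone, -1.28 with the mean over cells and with the B cell level subtracted, and -1.35 after thinning. The count higher, 0, was 1 with every barcode of at least 500 UMIs, without doublet removal, at Leiden resolution 0.5, with the mean over cells and after thinning. In GC callus it was -1.66, and in the same order -1.60, -1.79, -0.49, -0.73, -1.06, -1.76, -1.41, -1.78, -1.76 and -1.74, besides -1.72 with a mitochondrial limit of 5%, -1.63 with ambiguous clusters named, -1.53 with every cluster under its best marker name and -1.58 with a pseudocount of 20. Without doublet removal the count higher was 1.

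Both chondrocyte classes held 88.7% of the UMIs of the 10 genes in control and 70.7% in GC callus. These shares were 72.3% and 53.8% with every barcode of at least 500 UMIs, 94.6% and 81.9% with at least 500 genes a cell, 85.4% and 72.6% with a mitochondrial limit of 5%, 80.5% and 64.8% without doublet removal, 74.1% and 59.7% at Leiden resolution 0.5, 61.8% and 61.3% at resolution 2, 87.0% and 67.6% with the members used in clustering, 72.3% and 91.0% with each library clustered alone, 97.5% and 96.3% with every cluster under its best marker name, 81.4% and 44.2% with the mean over cells, and 81.9% and 45.6% after thinning. With ambiguous clusters named the GC share was 80.4%. The share of chondrocytes with at least 5 of the 10 genes was 66.6% in control and 45.5% in GC after thinning to 500 UMIs. The 10 genes summed to 61.6 CPM over GC trabecular cells, and to 65.3 CPM with at least 500 genes a cell. B cells over empty droplets came to 0.090 with droplets of 10 to 99 UMIs and to 0.073 with those under 50 UMIs, against 0.078.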
